A study of Mus musculus with 4 samples.

Results

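Small leucine-rich proteoglycans of the mouse tracheoesophageal anlage, dorsal against ventral, were examined through 10 genes, *Nepn*, *Dcn*, *Bgn*, *Lum*, *Fmod*, *Ogn*, *Omd*, *Prelp*, *Epyc* and *Kera*. They were represented by 20 of the 45101 probe sets on the arrays, each annotated with that single gene symbol, and all 10 genes were found by identifier in RefSeq. *Nepn* was chosen by its high dorsal value in these same arrays, so its difference between the parts is described without a test. The other 9 genes were taken for their family.

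At this stage esophagus and airway are not yet separate and form 1 tube, the anlage. It was dissected from BALB/c embryos around E9.75, from the end of the pharynx to the end of the lung bud swelling, and separated by hand into dorsal and ventral parts. No genotype or treatment differed between the groups, and each part was measured on 2 Affymetrix arrays that the labels call biological replicates, each labelled from 100 ng of total RNA. Whether embryos were pooled is not stated in the labels or methods. The p-values therefore cover the spread among these 4 arrays, which may be technical. Every sample held epithelium, mesenchyme and adjoining tissue together, so more cells of a type and more RNA per cell cannot be told apart.

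Small leucine-rich proteoglycans are secreted proteins of the extracellular matrix, built around a chain of leucine-rich repeats that forms a curved solenoid. Many bind fibrillar collagen and affect fibril assembly, and many carry chondroitin, dermatan or keratan sulfate chains, while several bind growth factors, among them TGF-beta. *Nepn* encodes nephrocan, a secreted member of the superfamily that was found to inhibit TGF-beta signaling in cultured cells and is known as a marker of midgut endoderm in the early mouse embryo.

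The sequences before the start sites of *Nepn* and *Bgn*, which had higher dorsal values, and of *Fmod*, which had higher ventral values, are shown to let their composition be compared. Each is the 250 bases before the RefSeq start in GRCm38.p6, read on the plus strand, and capitals mark matches on either strand to a core promoter motif (TATAAA), a forkhead motif (TGTTTNC), a motif of GATA factors (AGATAA) or a GC box (GGGCGG). These motifs were chosen after the sequences were seen.
Nepn, chr10:52391358-52391607: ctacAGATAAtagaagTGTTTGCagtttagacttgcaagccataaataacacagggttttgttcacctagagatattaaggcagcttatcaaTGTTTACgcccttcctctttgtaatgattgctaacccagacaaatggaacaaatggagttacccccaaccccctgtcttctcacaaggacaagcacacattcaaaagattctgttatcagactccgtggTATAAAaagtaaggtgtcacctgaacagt
Bgn, chrX:73483351-73483600: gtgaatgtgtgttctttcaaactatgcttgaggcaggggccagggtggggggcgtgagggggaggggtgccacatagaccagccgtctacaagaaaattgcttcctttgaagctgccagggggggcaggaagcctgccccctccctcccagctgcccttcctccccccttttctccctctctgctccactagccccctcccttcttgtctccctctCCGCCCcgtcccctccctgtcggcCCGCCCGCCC
Fmod, chr1:134037004-134037253: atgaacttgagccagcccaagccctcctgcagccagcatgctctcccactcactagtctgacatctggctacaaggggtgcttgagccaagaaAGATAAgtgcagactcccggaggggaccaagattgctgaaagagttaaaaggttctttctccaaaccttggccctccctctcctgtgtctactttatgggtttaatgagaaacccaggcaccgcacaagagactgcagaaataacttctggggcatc

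The *Nepn* sequence had a GC content of 40.4%, and 12.5% of all promoter sequences in the RefSeq table had less. Its TATAAA match began 29 bases before the start, its forkhead matches began 234 and 158 bases before it, and its GATA match 246 bases before it. The *Bgn* sequence had a GC content of 64.4% and held only GC box matches, the last 2 of which overlap, whereas the *Fmod* sequence (51.2%) held a GATA match alone. Over 32851 promoter sequences of the same length, 12.4% held the TATAAA letters, 17.8% the forkhead letters, 9.99% the GATA letters and 32.7% the GC box letters. Among the other listed genes, *Omd*, *Prelp*, *Epyc* and *Kera* also held forkhead letters, *Epyc* GATA letters and *Ogn* TATAAA letters. No promoter sequence was available for *Dcn* and *Lum*. A match of letters is a description of the sequence only.

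Values are RMA values on the log2 scale, where a difference of 1 is 2-fold. No detection calls were used, so a probe set was compared by limma only if it lay above the 40th percentile of the array (4.69 to 4.82) on at least 2 arrays. Of 27545 such probe sets, 4.92% were higher dorsally and 2.47% ventrally at an adjusted p under 0.05 (1356 and 679, or 970 and 744 after a further quantile normalization). Of the 19 probe sets of the 9 genes other than *Nepn*, 11 were compared, representing 5 genes. *Lum* and 2 of 3 probe sets of *Bgn* were higher in the dorsal part, 3 of 5 compared probe sets of *Fmod* were higher in the ventral part, and *Ogn*, *Omd*, *Prelp* and *Kera* were low on every array. By probe set, 3 of the 11 were higher dorsally, 3 were higher ventrally and 5 did not pass the test. Without the filter, 2.45% of 45037 probe sets were called dorsal and 1.33% ventral, among them 3 and 2 of the 19. The values of the parts did not overlap in all 11 compared probe sets, 6 with the dorsal and 5 with the ventral values above, where these shares were 33.6% and 15.8% over all compared probe sets. Over the 19 these numbers were 7 and 8, against 25.2% and 18.6% of the probe sets that are no array controls. The filter admits probe sets through 1 part alone, which was so for *Epyc* and for 2 of the 3 ventral calls of *Fmod*, so these counts lend no support of their own. With low values set to the percentile, 2 probe sets of *Fmod* were called ventral. With 2 arrays in each part, the smallest two-sided p of an exact permutation test is 0.333.

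**Figure D1:**
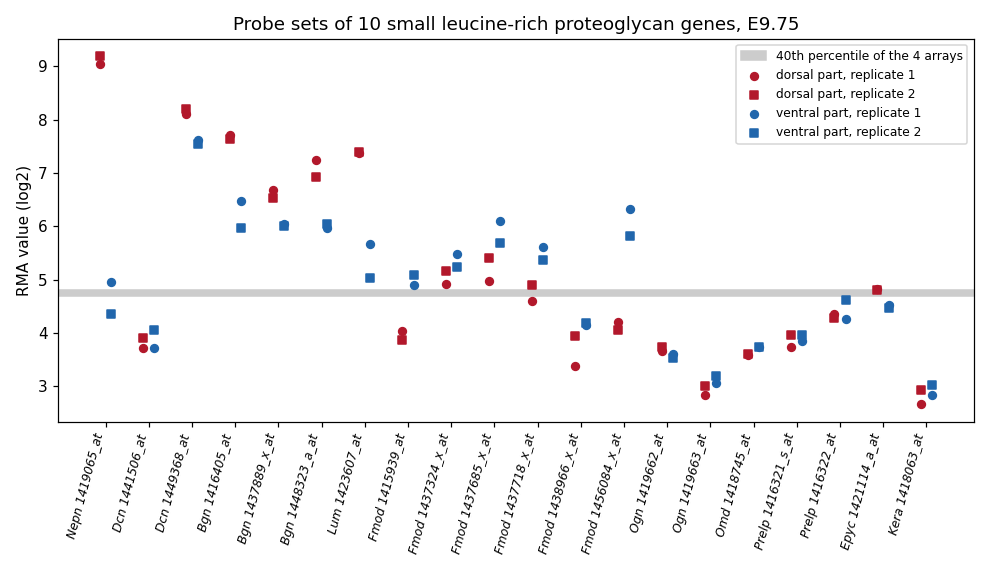
RMA values (log2, vertical axis) of the 20 probe sets of the 10 genes on each of the 4 arrays, red for the dorsal and blue for the ventral part, with circles for replicate 1 and squares for replicate 2. The grey band spans the 40th percentiles of the arrays, 4.69 to 4.82. *Nepn*, *Lum* and *Bgn* lie higher in red, and *Fmod* lies higher in blue.

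*Nepn* had dorsal values of 9.05 and 9.19 and ventral values of 4.95 and 4.36. The dorsal values lay far above the ventral ones, at the 83.5th and 84.5th percentiles of their arrays against the 43.7th and 31.7th. The difference was 4.47 on the log2 scale, or 22.1-fold, with an SD of 0.10 dorsally and 0.42 ventrally (n = 2 each), and replicate 1 of each part gave 4.11 where replicate 2 gave 4.83. Because ventral replicate 2 lay below the 40th percentile, the difference was also set against that percentile, which gave 4.24 (18.9-fold). Of 13146 genes compared by their highest probe set, 3 had a larger dorsal difference, and 3 did with low values set to the percentile. These were not all the same genes, since *Hoxb6* lay above *Nepn* only as measured (4.66, or 3.89 against the percentile) and *Crabp1* (4.29 on both scales) only against the percentile. These values chose the gene and were not tested.

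Since *Nepn* is known from midgut endoderm, other genes of midgut and pancreatic endoderm are given beside it. Of 7 compared genes of that list, *Mnx1*, *Neurog3*, *Sox17* and *Pdx1* were higher dorsally and *Isl1* ventrally, whereas *Cdx1*, *Cdx2*, *Cdx4* and *Ptf1a* lay below the 40th percentile on every array. *Mnx1*, *Neurog3* and *Pdx1* were admitted to the test through their dorsal values alone, so their calls lend no support of their own. With ventral values set to the percentile their differences were 1.61, 1.41 and 0.72. *Mnx1*, a homeobox gene of the notochord, motor neurons and dorsal pancreatic bud, was at 6.51 and 6.23 dorsally and 3.77 and 3.95 ventrally. The caudal homeobox gene *Cdx2*, which defines posterior gut endoderm, was at 4.59 and 4.56 dorsally and 4.53 and 4.70 ventrally, so the groups overlapped at a low level. The summed linear level of the 11 genes of the list on the array was 2403 to 2415 dorsally and 4522 to 5125 ventrally. *Isl1*, a homeobox gene also of heart progenitors and motor neurons, made up 1286 to 1367 and 3909 to 4523 of it, and the other 10 genes summed to 1048 to 1117 dorsally and 602 to 613 ventrally, so the direction of the sum was that of *Isl1*. The part of these cells in the *Nepn* value was not tested.

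The genes whose pattern over the 4 arrays was nearest to that of *Nepn*, by the Euclidean distance of values centred on their mean, were *Crabp1* (0.33), *Hoxb6* (0.34), *Ret* (0.41), *Hoxb5os* (0.43), *Maf* (0.83), *Bnc1* (0.90), *Vwf* (1.05) and *Nefm* (1.14). *Crabp1*, which encodes a retinoic acid binding protein, was at 11.10 and 10.98 dorsally and 7.20 and 6.31 ventrally. The receptor tyrosine kinase gene *Ret* was at 9.52 and 9.38 dorsally and 4.84 and 4.48 ventrally. *Bnc1*, a zinc finger gene of mesothelium, was at 8.83 and 8.64 dorsally and 5.49 and 4.79 ventrally. The differences of the 8 genes ran from 3.33 to 4.79. The measure used 4 arrays, and these genes were picked for their likeness, so no test was made.

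**Figure D2:**
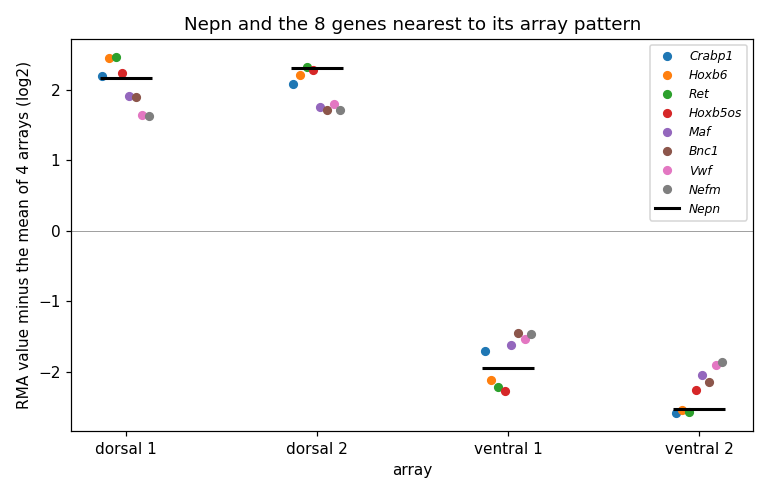
RMA value minus the mean of the 4 arrays (log2, vertical axis) on each array (horizontal axis) for *Nepn* (black bars) and for the 8 genes nearest to it (coloured points, 1 per gene). All lie above 0 on both dorsal arrays and below 0 on both ventral arrays, with dorsal minus ventral differences of 3.33 to 4.79 for the 8 genes.

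*Lum* encodes lumican, a keratan sulfate proteoglycan that binds collagen fibrils. Its dorsal values were 7.38 and 7.39, and its ventral values were 5.68 and 5.03. The groups did not overlap, and the 2 ventral arrays differed from each other far more than the 2 dorsal arrays did. *Lum* was 4.09-fold higher in the dorsal part, or 2.03 on the log2 scale (standard error, SE, 0.21, limma adjusted p = 0.000193). Replicate 1 of each part gave 1.70 and replicate 2 gave 2.36.

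*Bgn* encodes biglycan, a proteoglycan with chondroitin or dermatan sulfate chains that binds collagen and TGF-beta, and it had 3 probe sets. The probe set 1416405_at was at 7.71 and 7.63 dorsally and 6.48 and 5.98 ventrally, which is a difference of 1.45 (SE 0.19, 2.73-fold, limma adjusted p = 0.00106). The second, 1448323_a_at, was at 7.25 and 6.93 dorsally and 5.97 and 6.04 ventrally, a difference of 1.09 (SE 0.17, limma adjusted p = 0.00317). The third, 1437889_x_at, was at 6.69 and 6.54 dorsally and 6.04 and 6.01 ventrally, a difference of 0.59 (SE 0.16) that did not pass the test (limma adjusted p = 0.0574). All 3 probe sets thus had higher values on both dorsal arrays, with sizes that differed between them. Without dorsal replicate 1 the second did not pass either (0.93, limma adjusted p = 0.0973), whereas the third passed with a filter at the 60th percentile (0.0330) and without ventral replicate 1 (0.60, limma adjusted p = 0.0288). That last fit had 1 ventral array, assumed to vary like the dorsal pair, from which alone the spread came, and it called 36.9% of all probe sets.

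*Dcn* encodes decorin, the closest relative of biglycan, which carries a single glycosaminoglycan chain and binds fibrillar collagen and TGF-beta. Its probe set 1449368_at had dorsal values of 8.11 and 8.20 and ventral values of 7.61 and 7.54. The dorsal values were higher without overlap, by 0.58 on the log2 scale (SE 0.16, 1.50-fold), and this did not pass the test (limma adjusted p = 0.0568). It passed when each gene was represented by its highest probe set (limma adjusted p = 0.0298, 13146 genes), with a filter at the 60th percentile (0.0334) and in the same fit without ventral replicate 1 (0.62, limma adjusted p = 0.0228), and its call depended on these choices. The other probe set of the gene, 1441506_at, was low on every array, at 3.72 and 3.90 dorsally and 3.72 and 4.06 ventrally. With the probe sets of the gene averaged, the difference was 0.25 and did not pass (limma adjusted p = 0.388).

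*Fmod* encodes fibromodulin, a keratan sulfate proteoglycan that binds collagen fibrils, and it differed in the other direction. Each of its 6 probe sets had ventral values above the dorsal ones without overlap. The probe set 1456084_x_at was at 4.21 and 4.05 dorsally and 6.33 and 5.82 ventrally, which is a difference of -1.94 (SE 0.20, limma adjusted p = 0.000149). It lay below the 40th percentile on both dorsal arrays, and set against that percentile the ventral level was 2.55-fold higher. With all probe sets of the gene averaged the difference was -0.88 (limma adjusted p = 0.00408). That mean also lay below the 40th percentile on both dorsal arrays. It was admitted through its ventral values alone, so this call lends no support of its own. The probe set 1415939_at was at 4.04 and 3.86 dorsally and 4.91 and 5.09 ventrally (-1.05, limma adjusted p = 0.00328). It entered the test only through its ventral values, and set against the percentile its difference was -0.27 and did not pass (limma adjusted p = 0.432). Without dorsal replicate 2 it did not pass either (-0.96, limma adjusted p = 0.0821).

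The other probe sets of *Fmod* showed smaller differences. The probe set 1437718_x_at was at 4.60 and 4.90 dorsally and 5.61 and 5.36 ventrally (-0.74, limma adjusted p = 0.0331), and its call was lost when dorsal replicate 1 (-0.59), dorsal replicate 2 (-0.88) or ventral replicate 2 (-0.86) was left out, without the filter (limma adjusted p = 0.0601) and after a further quantile normalization (limma adjusted p = 0.0863). The highest probe set of the gene, 1437685_x_at, was at 4.97 and 5.41 dorsally and 6.11 and 5.69 ventrally, and its difference of -0.71 did not pass (limma adjusted p = 0.0720), but passed with 1 probe set per gene (limma adjusted p = 0.0189) and with array medians set equal (limma adjusted p = 0.0469). The probe set 1437324_x_at differed by -0.32 (limma adjusted p = 0.397), and 1438966_x_at was below the 40th percentile on every array. The size of the difference varied with the probe set and its sign did not. Of the 6, 5 carry the suffix that marks probes which may match other transcripts, and the part of this in their values was not tested.

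**Figure D3:**
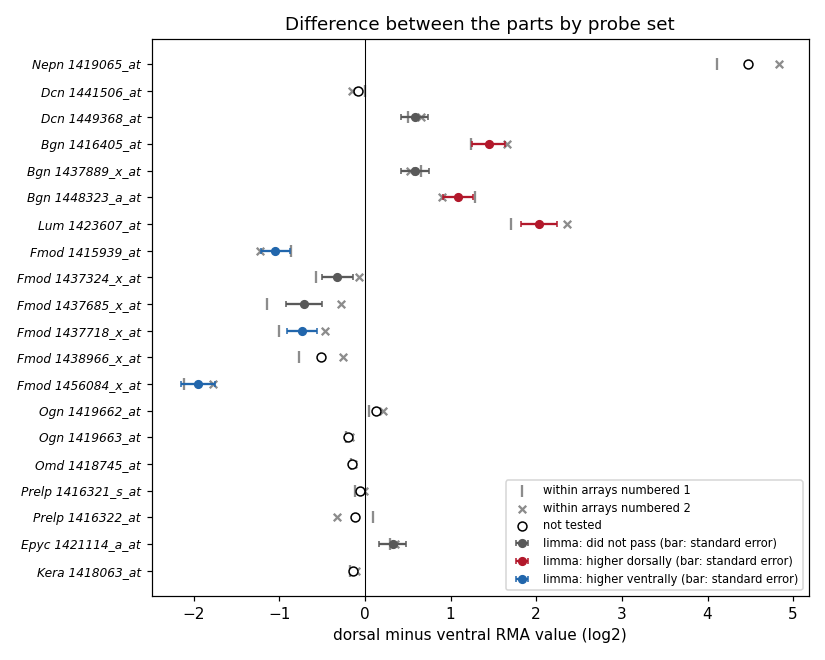
Each of the 20 probe sets by its difference between the parts (RMA, log2, dorsal minus ventral, horizontal axis), with points coloured by the limma call and bars for the standard error. Open points were not tested, *Nepn* because it was chosen for this value and the others because they were low, and grey ticks and crosses give the difference within the arrays numbered 1 and 2. *Lum* and 2 probe sets of *Bgn* are called dorsal and 3 probe sets of *Fmod* ventral.

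*Epyc* encodes epiphycan, a proteoglycan of growth plate cartilage. It was at 4.82 and 4.81 dorsally and 4.53 and 4.46 ventrally, close to the 40th percentile, which it exceeded on the dorsal arrays only. Its difference of 0.32 did not pass the test (limma adjusted p = 0.333), and set against the percentile it was 0.06 (limma adjusted p = 0.872). It passed without ventral replicate 1 (0.36, limma adjusted p = 0.0414), in the fit that called 36.9% of all probe sets.

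*Ogn* (osteoglycin, or mimecan), *Omd* (osteomodulin, of bone), *Prelp* (of basement membranes and cartilage) and *Kera* (keratocan, of the cornea) were low on every array. Their 6 probe sets, with the low ones of *Dcn* and *Fmod*, ran from 2.67 to 4.62, which is the 0.349th to the 36.6th percentile of the arrays. *Kera* was at 2.67 and 2.93 dorsally and 2.84 and 3.03 ventrally. *Omd* was at 3.58 and 3.60 dorsally and 3.75 on each ventral array. The differences of the 6 probe sets ran from -0.20 to 0.13, and in the fit without the filter none passed (limma adjusted p = 0.647 to 0.912).

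Of 7 further genes of the family that had a probe set, 3 were compared and none passed the test by limma, nor did any have an unadjusted p under 0.05. *Podn*, which encodes podocan, was at 6.65 and 6.81 dorsally and 6.86 and 7.23 ventrally (-0.32, SE 0.18, limma adjusted p = 0.421). *Chadl*, which encodes a chondroadherin-like protein of cartilage, was at 6.34 and 6.26 dorsally and 6.28 and 6.67 ventrally (-0.18, SE 0.18, limma adjusted p = 0.664). In the fit without ventral replicate 1, which takes its spread from the dorsal pair and called 36.9% of all probe sets, both passed, *Podn* at -0.50 (limma adjusted p = 0.0379) and *Chadl* at -0.37 (limma adjusted p = 0.0455). *Optc*, which encodes opticin of the eye, had a difference of 0.00160 (limma adjusted p = 0.998), and *Aspn*, *Chad*, *Nyx* and *Ecm2* lay below the 40th percentile on every array. *Tsku* and *Podnl1* were not analysed here.

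Most of these genes lie in clusters, so their values were set beside those of their neighbours. *Dcn*, *Lum*, *Kera* and *Epyc* follow each other on chromosome 10, and within this cluster *Lum* was higher dorsally while *Kera* was low on all arrays. The 4 compared neighbours on either side ran from -0.34 to 0.26, and none passed the test by limma. *Optc*, *Prelp* and *Fmod* follow each other on chromosome 1, where *Fmod* alone had a probe set that was called. *Ecm2*, *Aspn*, *Omd* and *Ogn* on chromosome 13 were all low, although the 5 compared neighbours of this cluster ranged in difference from 0.01 to 0.48 and were not low. *Bgn* on the X chromosome and *Nepn*, which lies on chromosome 10 with 469 protein-coding genes between it and *Dcn*, stand apart from the clusters. Directly beside *Nepn*, *Gopc* (8.51 and 8.53 dorsally, 8.72 and 8.47 ventrally) and *Nus1* (10.62 and 10.61 dorsally, 10.69 and 10.31 ventrally) differed by -0.07 and 0.12 and did not pass the test by limma. Farther out, *Slc35f1* differed by -0.91 (limma adjusted p = 0.0171) and *Vgll2* by -0.69 (limma adjusted p = 0.0411), both higher ventrally.

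**Figure D4:**
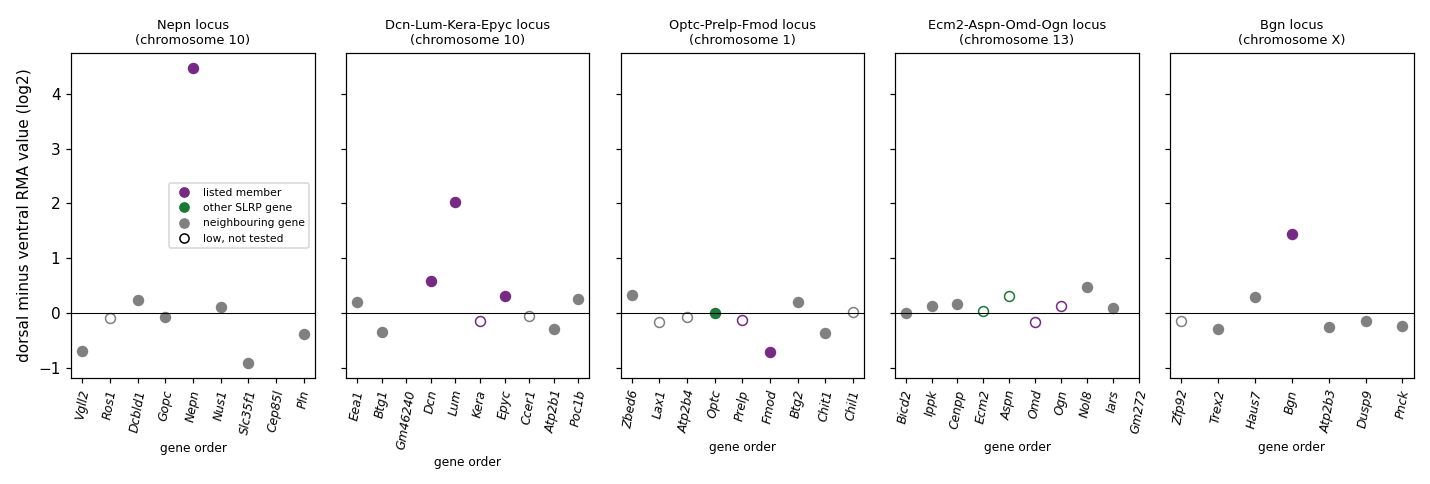
Difference between the parts (RMA, log2, dorsal minus ventral, vertical axis) for the genes of each locus in chromosomal order (horizontal axis, not to scale), with 1 point per gene from its highest probe set. Listed genes are purple, other family members green and neighbours grey, and open points were too low to be compared, while *Nepn* is filled but was not tested. *Nepn* at 4.47, *Lum* at 2.03 and *Bgn* at 1.45 stand above neighbours that ran from -0.91 to 0.48.

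The genes that build, process or bind these proteoglycans were read from the highest probe set of each gene, and by that measure 3.64% of 13146 genes were higher dorsally and 3.17% ventrally, with a median difference of 0.07. Of 12 collagen genes, *Col1a1*, *Col14a1* and *Col1a2* were higher dorsally, *Col6a2* was higher ventrally and 8 did not pass the test, with a median of 0.15. *Col1a1*, which encodes a chain of type I collagen, was at 8.71 and 8.84 dorsally and 6.29 and 6.16 ventrally, which is a difference of 2.54 (SE 0.16, 5.83-fold, limma adjusted p = 6.23e-06), or 1.84 with its probe sets averaged. *Col1a2*, the other chain of that collagen, was at 11.41 and 11.53 dorsally and 10.46 and 10.26 ventrally (1.11, limma adjusted p = 0.00217). The collagen XIV gene *Col14a1* differed by 1.27 (limma adjusted p = 0.00447), which did not pass without ventral replicate 2 (limma adjusted p = 0.0661) or with a further quantile normalization (1.25, limma adjusted p = 0.0663), and with its probe sets averaged it was 0.55 (limma adjusted p = 0.0381). *Col6a2*, of the microfibrillar collagen VI, differed by -0.90 (limma adjusted p = 0.00629). Omitting either dorsal array ended the call (-0.91 and -0.90), in fits that took their spread from the ventral pair alone.

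Among 5 compared genes of propeptide processing, *Pcolce* and *Pcolce2* were higher dorsally and 3 did not pass, with a median of 0.45. *Pcolce*, which encodes an enhancer of procollagen C-proteinase, was at 9.62 and 9.79 dorsally and 7.97 and 7.71 ventrally, a 3.65-fold difference (1.87, SE 0.17, limma adjusted p = 7.98e-05). *Pcolce2* differed by 0.64 (limma adjusted p = 0.0491) and failed the test when either dorsal array (0.67 and 0.60) or ventral replicate 2 (0.50) was omitted, when low values were kept and when array medians were set equal.

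In each list of sugar chain enzymes 1 gene passed the test. Over all compared genes, 3.64% were higher dorsally and 3.17% ventrally. Of 20 compared genes of the chondroitin and dermatan sulfate pathway, *Chst15*, a sulfotransferase, was higher dorsally (0.73, limma adjusted p = 0.0230) and 19 did not pass, with a median of 0.07. Its call was lost when either dorsal array (0.66 and 0.80) or ventral replicate 2 (0.64) was omitted. Of 11 genes of keratan sulfate synthesis, *Chst1*, which encodes the sulfotransferase of its galactose residues, was at 6.84 and 7.19 dorsally and 5.76 and 5.81 ventrally (1.23, SE 0.18, limma adjusted p = 0.00168). The other 10 did not pass, and the median of that list was -0.03. Of 15 genes of large and cell-surface proteoglycans, such as syndecans and glypicans, none passed the test by limma, with a median of 0.23. An unadjusted p under 0.05 was found for 3 of them, near the share of 16.4% over all genes compared in this way.

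TGF-beta genes, whose ligands several of these proteoglycans bind, differed in both directions. Of 14 compared genes, *Tgfbi* was higher dorsally, *Tgfb2* and *Smad7* were higher ventrally and 11 did not pass, with a median of 0.10. The ligand gene *Tgfb2* was at 8.30 and 8.35 dorsally and 10.31 and 10.17 ventrally, which is a difference of -1.91 (SE 0.16, limma adjusted p = 4.18e-05). *Tgfbi*, which encodes a matrix protein induced by TGF-beta, was at 8.66 and 8.76 dorsally and 6.92 and 7.03 ventrally (1.73, limma adjusted p = 8.59e-05). *Smad7*, an inhibitor of the pathway, differed by -0.97 (limma adjusted p = 0.00815) and failed the test when either dorsal array was omitted (-0.96 and -0.97). Of 6 other receptor genes, none passed the test by limma and 1 had an unadjusted p under 0.05, where 16.4% of all compared genes did.

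**Figure D5:**
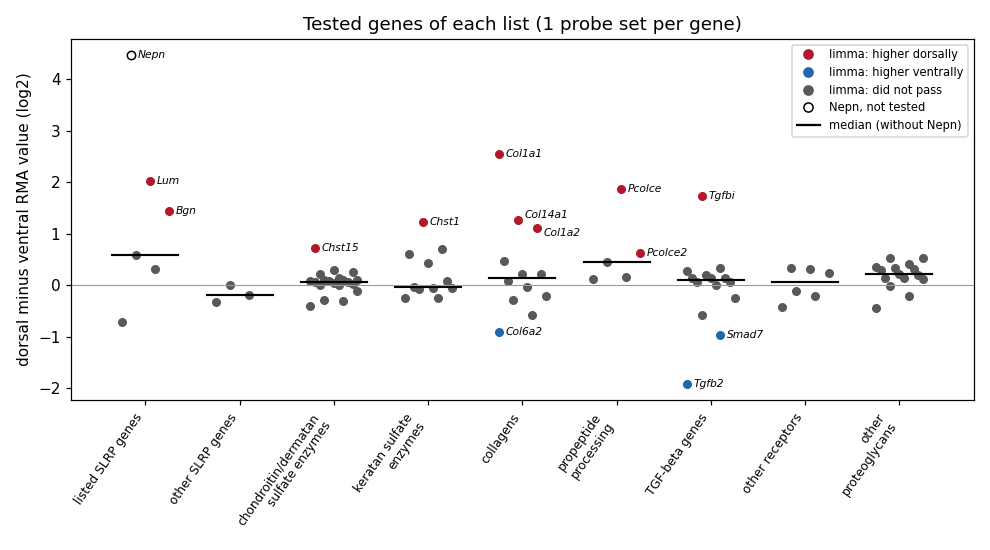
Difference between the parts (RMA, log2, dorsal minus ventral, vertical axis) for every compared gene of 9 lists (horizontal axis), with 1 point per gene coloured by the limma call and a black bar at the median of the list. *Nepn* (open point) was not tested and is left out of the median of the family, which was 0.58 over 5 genes. Called genes are named. *Col1a1* (2.54), *Lum* (2.03), *Pcolce* (1.87) and *Tgfbi* (1.73) lie highest among the called genes, and *Tgfb2* (-1.91) lies lowest.

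Markers of other tissues differed between the parts in both directions. Of 5 compared mesothelial genes, 4 were higher dorsally, *Bnc1*, *Wt1*, *Upk3b* and *Lrrn4*. The other, *Tcf21*, went the other way without overlap, at 9.37 and 9.01 dorsally and 10.26 and 9.54 ventrally. Its difference of -0.71 did not pass the test (limma adjusted p = 0.123). *Msln* was below the 40th percentile on every array. The summed linear level of the 6 genes, *Tcf21* included, was 1618 to 1888 dorsally and 904 to 1433 ventrally. Of 6 neural crest genes 5 were higher dorsally and 1 ventrally (summed 2276 to 2308 and 1065 to 1089), and of 5 somite and muscle genes *Meox1* and *Meox2* were higher dorsally (summed 1051 to 1198 and 881 to 1014). All 10 compared heart muscle genes were higher ventrally (summed 2392 to 2422 dorsally and 16045 to 20738 ventrally), with *Myl2* and *Nppa* low on every array. Among these markers, *Wt1* and the neural crest gene *Foxd3* entered the test through their dorsal values alone. *Myh6* and *Ryr2* of heart muscle entered it through their ventral values alone. With low values set to the percentile, the differences of *Wt1*, *Foxd3*, *Myh6* and *Ryr2* were 2.20, 0.62, -5.33 and -2.89. Counts that include them lend no support of their own. Of 6 gut mesenchyme genes, *Foxf1* and *Barx1* included, none passed the test by limma and 1 had an unadjusted p under 0.05, against 16.4% of all compared genes. This was *Osr1*, with ventral values above the dorsal ones without overlap (-0.71, limma adjusted p = 0.0543). Differences of the 6 genes were positive for 4 and negative for 2. Of 4 compared liver bud genes 3 were higher ventrally, and of 4 blood genes 1 was higher dorsally. Of 7 foregut endoderm genes only *Shh* passed the test by limma, higher ventrally. An unadjusted p under 0.05 was found for 4 of the 7, against 16.4% of all compared genes. Differences of the 7 were negative for 6 and positive for 1, *Sox2* (0.57, limma adjusted p = 0.0596). Of 6 endothelial genes none passed the test by limma and 1 had an unadjusted p under 0.05, close to that same share. The foregut markers *Foxa2* (8.95 to 9.53) and *Sox2* (8.71 to 9.33) lay well above the 40th percentile on every array, but the respiratory marker *Nkx2-1* (5.03 to 5.25) lay only slightly above it. The part of these tissues in the values of *Lum*, *Bgn*, *Dcn* and *Fmod* was not tested.

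The arrays differed in ways that bear on these values. The median absolute difference between replicates was 0.09 in the dorsal and 0.27 in the ventral part, and the upper quartile was 7.75 in ventral replicate 2 against 7.99 to 8.02 elsewhere. Fits without a dorsal array took their spread from the ventral pair alone, and fits without a ventral array from the dorsal pair alone. The part of this in calls lost or gained was not tested. The median of all compared probe sets was 0.08, and it was 0.19 without ventral replicate 1 and 0.01 without ventral replicate 2. *Nepn*, *Lum* and the *Bgn* probe set 1416405_at had higher dorsal values under every scaling tried, and all compared *Fmod* probe sets had lower ones. The 12 probe sets for spiked poly-A RNAs had higher values on replicate 2 than on replicate 1 of either part (2.20 dorsal, 1.82 ventral), and the share of this in the results was not tested.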

How the data were processed

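Total RNA of the dorsal and ventral parts was hybridised to Affymetrix mouse arrays after biotin labelling in 2 cycles. The authors summarised the arrays by RMA, which the labels list as the processing tool, and the deposited values were read here as log2 from their range. The version of the software is not stated. Precision is limited by the number of arrays (4). Columns were assigned to samples through the sample labels. Of 45101 probe sets, 34958 had 1 gene symbol in the platform annotation given to GEO, some of which may be outdated, and 64 array controls were left out. Genes and sequences were looked up in RefSeq tables of GRCm38.p6.

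The 27545 probe sets that exceeded their array's 40th percentile on 2 or more arrays were fitted with limma 3.58.1 (lmFit, then eBayes) under R 4.3.3, dorsal minus ventral, two-sided, with Benjamini-Hochberg adjustment over all of them and a threshold of 0.05. Gene lists were described by counts and medians of each gene's highest probe set. The members and lists were chosen with earlier results of these data known. Genes named were all members and their family, up to 4 called genes per list with the largest differences, the 8 genes nearest to *Nepn*, direct neighbours and markers. The neighbours, motifs and sequences were chosen after values were seen. The fitting script was tested on simulated data in which the spread of each probe set was drawn from the prior that limma fitted. Earlier simulations with other spreads recovered fewer changes or made more false calls than the nominal share, and the simulation was changed after them while the test was kept. The simulation therefore checks the script, and the share of false calls in the real arrays was not measured. Alternatives were other filters (none, 60th percentile), a further quantile normalization, equal medians of the arrays, eBayes with a trend or robust, the replicate number as a block, 1 probe set or the mean of all probe sets per gene, no probe sets of several transcripts, low values set to the 40th percentile, thresholds of 0.01 and 0.10, and leaving out arrays 1 at a time.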

Additional observations from a re-analysis of the deposited data

How the results depend on the processing

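*Nepn* stayed between 4.17 and 4.76 when any 1 array was left out. *Lum*, *Bgn* 1416405_at, *Col1a1*, *Col1a2*, *Chst1*, *Pcolce*, *Tgfb2* and *Tgfbi* kept direction and call under every alternative that could be fitted. The 3 family probe sets called dorsal became 5 with a filter at the 60th percentile, at a threshold of 0.10 and with the replicate block, and 2 to 6 when 1 array was left out. The 3 called ventral became 0 with a filter at the 60th percentile, which no *Fmod* probe set passed, so none could be called. The count was 1 with 1 probe set per gene, with averaged probe sets or without probe sets of several transcripts. In these, fewer *Fmod* probe sets were tested. It was also lower when any 1 array was left out, in fits with 1 array in a part. Over all compared probe sets, the 1356 dorsal and 679 ventral calls became 2177 and 1056 with the replicate block, 629 dorsal when genes had 1 probe set each, 440 and 407 with the probe sets of a gene averaged, 664 and 430 at a threshold of 0.01, and 970 and 744 with a further quantile normalization, and they ran from 442 to 7567 and from 391 to 2411 when 1 array was left out, the highest numbers being those without ventral replicate 1. The labels do not say that a replicate number marks a shared litter or day, and the deviations of same-numbered arrays correlated at 0.193 over 2 pairs. With the replicate block, *Dcn* 1449368_at (limma adjusted p = 0.0199), *Bgn* 1437889_x_at (0.0185) and *Fmod* 1437685_x_at (0.00220) passed. *Optc* changed sign with equal array medians (-0.004645) and across omitted arrays (-0.15 to 0.16), as did *Chadl* (-0.37 to 0.017), and neither had passed the test. The causes of these changes were not tested. Values near the 40th percentile, as for *Epyc* and *Fmod*, limit what can be compared.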
